A study of Mus musculus with 6 samples.

Results

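The insulin-like growth factor (IGF) binding proteins measured here were the products of 6 mouse genes, Igfbp2, Igfbp3, Igfbp4, Igfbp5, Igfbp6 and Igfbp7. Every probe set that the platform annotation assigns to 1 of these genes alone was kept, which gave 15 probe sets of 45033 used in all and 6 genes of 18192. Igfbp4 had 6 probe sets, Igfbp7 had 3, Igfbp3 and Igfbp5 had 2 each, and Igfbp2 and Igfbp6 had 1 each. The genes were picked with their knockdown values on these arrays known, so those values are given as a description and without a test.

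The samples were C2C12 cells. This line of mouse myoblasts stops dividing and fuses into myotubes once serum is lowered, and RNA of all 6 samples was taken after 28 hours in 2% horse serum and measured on 1 Affymetrix array each. The control group held 3 samples transfected with a short hairpin RNA (shRNA) against GFP, a jellyfish protein that these cells lack, and the other group held 3 samples transfected with an shRNA against PRDM2, a histone H3 lysine 9 methyltransferase. The labels number the samples 1 to 3 in each group as biological replicates, with no statement of separate transfections or clones, so the spread below is that between these samples and may in part be technical. The arrays compare RNA abundance in a population of cells, so fewer cells with a transcript and less transcript per cell cannot be told apart.

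IGF binding proteins are secreted proteins that hold IGF1 and IGF2 outside the cell, lengthen their life and regulate how much of them reaches the IGF1 receptor. Proteases in the cell's surroundings cut several of them and so release the bound growth factor. In cultured myoblasts IGF2, made by the cells themselves, promotes differentiation, and Igfbp5 is known to be expressed as myoblasts differentiate. Igfbp7 is a more distant relative that binds IGFs weakly and is found in the extracellular matrix.

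On these arrays the brightest probe sets of 4 of the 6 genes split the samples in the same way. Control replicates 1 and 3 were on one side and control replicate 2 together with the 3 knockdown samples on the other. Igfbp2, Igfbp3 and Igfbp5 read higher on control replicates 1 and 3, whereas Igfbp7 read lower there. The remaining pair, Igfbp4 and Igfbp6, read highest on the arrays numbered 2 in each group. The sequences just upstream of the 4 genes that shared the first split are shown for reference, each as the 250 bases before the transcription start that RefSeq annotates in build GRCm38.p6. They lie at chr1:72824230-72824479 (plus strand) for Igfbp2, chr11:7213924-7214173 (minus strand) for Igfbp3, chr1:72874866-72875115 (minus strand) for Igfbp5 and chr5:77408046-77408295 (minus strand) for Igfbp7, and each is written 5′ to 3′ in the direction of its gene. Capitals mark matches on either strand to CANNTG, the E-box read by myogenic factors such as MyoD among others, and to GGGCGG, the GC box read by Sp1.
Igfbp2: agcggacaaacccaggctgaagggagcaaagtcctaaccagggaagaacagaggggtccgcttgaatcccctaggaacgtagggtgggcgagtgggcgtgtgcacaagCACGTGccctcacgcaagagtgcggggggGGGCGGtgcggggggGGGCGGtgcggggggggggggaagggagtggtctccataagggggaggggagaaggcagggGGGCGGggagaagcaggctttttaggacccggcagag
Igfbp3: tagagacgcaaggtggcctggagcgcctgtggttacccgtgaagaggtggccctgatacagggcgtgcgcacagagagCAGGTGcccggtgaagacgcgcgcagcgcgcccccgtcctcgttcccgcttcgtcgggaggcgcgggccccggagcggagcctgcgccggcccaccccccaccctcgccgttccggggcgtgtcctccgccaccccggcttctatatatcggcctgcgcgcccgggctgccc
Igfbp5: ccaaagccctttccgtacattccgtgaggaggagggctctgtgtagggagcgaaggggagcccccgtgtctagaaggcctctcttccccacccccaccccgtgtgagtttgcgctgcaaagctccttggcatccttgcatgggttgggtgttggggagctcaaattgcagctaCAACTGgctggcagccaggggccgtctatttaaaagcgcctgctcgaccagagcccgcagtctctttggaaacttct
Igfbp7: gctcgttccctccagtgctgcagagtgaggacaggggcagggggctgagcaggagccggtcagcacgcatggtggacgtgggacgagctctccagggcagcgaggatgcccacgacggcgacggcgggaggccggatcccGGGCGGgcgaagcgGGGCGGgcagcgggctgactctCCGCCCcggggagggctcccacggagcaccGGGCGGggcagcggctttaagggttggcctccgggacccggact

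The E-box occurred 1 time in each of the windows of Igfbp2, Igfbp3 and Igfbp5, and 0 times in that of Igfbp7. Of 32851 annotated promoter windows of the same length, 66.2% held an E-box, so its presence is common. The GC box occurred 4 times upstream of Igfbp7 and 3 times upstream of Igfbp2, against 0 times for Igfbp3 and Igfbp5, and 32.7% of all windows held one. A further motif searched, TATAAA, was found in none of these 4 windows but 1 time each in those of Igfbp4 and Igfbp6, with 12.4% of all windows holding it. Igfbp4 and Igfbp6 also had 1 E-box each and 0 GC boxes. No match overlapped another. Windows were GC-rich for Igfbp7 (74.0%), Igfbp3 (73.2%) and the first of the 2 annotated starts of Igfbp2 (67.2%), compared with a median of 52.4% over all windows and 58.8% for Igfbp5. The sequence and counts of Igfbp2 above are those of this first start. The window of its second start held 1 E-box, 0 GC boxes and 0 TATAAA matches, with 56.4% GC. These letter matches do not show that a factor binds.

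Some facts about the arrays bear on every value below. The array labelled control replicate 2 lay very close to knockdown replicate 2, with a median absolute deviation (MAD) of 0.0677 log2 units between them over the 4548 brightest genes, against 0.187 to 0.370 for the other 14 pairs. Prdm2 itself was not lower on the knockdown arrays. Its brightest probe set read 57.5, 73.9 and 43.9 intensity units in control replicates 1 to 3 and 88.6, 65.5 and 45.4 in knockdown replicates 1 to 3, so directions rest on the labels alone. Of 15 markers of skeletal myoblasts and myotubes, 13 read above 16 units on every array, including Myod1, Myog and Myh3, and Myf6 was below 16 units on all arrays. Actn2 was below that level on control replicate 1 alone, at 7.88 units. Levels were not uniform, and Myf5 read 177.1 and 170.0 units in control replicates 1 and 3 and 29.7 to 43.5 units elsewhere. Mef2c went the other way, at 72.5 and 85.2 units there and 199.6 to 390.4 units elsewhere. Whether the array labelled control replicate 2 holds the sample that its label names was not tested, and a mislabelled or exchanged sample would bear on every control mean and every difference given here. Results are therefore given with and without it.

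In the fit across all genes with 6 arrays, 0 of 18192 genes passed an adjusted p of 0.05 (limma, Benjamini-Hochberg), so that percentage was 0, and 600 had an unadjusted p under 0.05. Without control replicate 2, 1.6% of all genes passed. No call is given for the 6 binding protein genes themselves, since these values chose them. Of the log2 differences with all 6 arrays, 4 of 6 were at least 1 in size, against 0.407% of all genes. Without control replicate 2 that share was 1.31% of all genes. The groups of arrays did not overlap for 0 of the 6 genes with 6 arrays, against 7.17% of all genes, and for 4 of the 6 without control replicate 2, against 30.2%. By probe set the counts were 3 of 15 (7.14% of probe sets naming 1 gene) and 9 of 15 (27.9%). Since this contrast was used to pick the genes, nothing is read from these counts. The median size of the log2 difference was 1.16 over the 6 genes and 0.08 over all genes with 6 arrays, and 1.72 and 0.10 without control replicate 2.

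**Figure D1:**
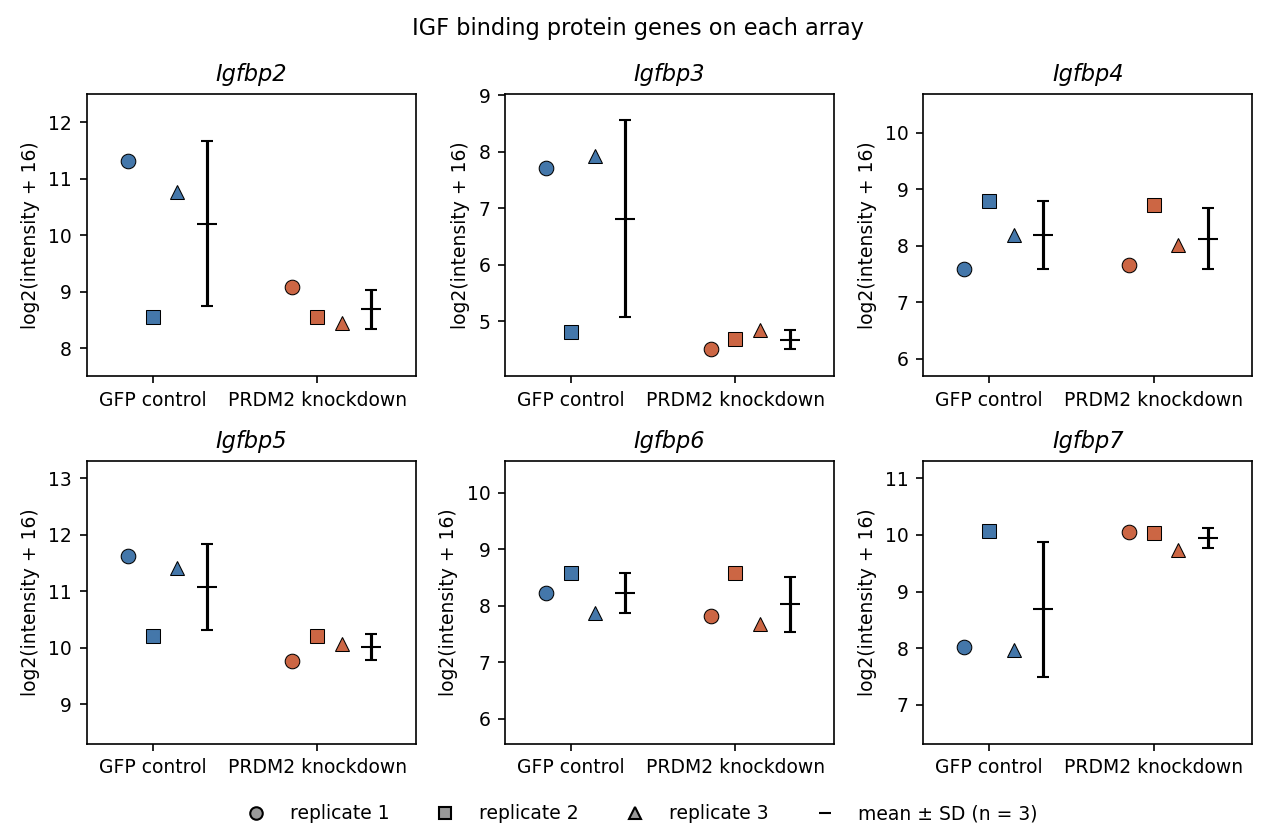
Values of the brightest probe set of each gene on each array, as log2(intensity + 16) after quantile normalization, with circles, squares and triangles for replicates 1, 2 and 3 and bars for the mean ± SD of 3 arrays; the axes start at different levels but all span 5 log2 units. In Igfbp2, Igfbp3, Igfbp5 and Igfbp7 the square of the control group lies beside the knockdown points, and in Igfbp4 and Igfbp6 the squares of both groups are highest.

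Igfbp2 encodes a binding protein with an integrin-binding RGD motif. Its single probe set read 2660, 366.2 and 1661 intensity units in control replicates 1, 2 and 3, and 563.1, 352.9 and 308.4 units in knockdown replicates 1, 2 and 3. Control replicates 1 and 3 thus stood far above the other 4 arrays, and control replicate 2 lay within the range of the knockdown group, so the groups overlapped. On the log2(intensity + 16) scale the control mean was 10.21 ± 1.46 (SD, n = 3) and the knockdown mean 8.69 ± 0.34 (SD, n = 3). The log2 difference, knockdown minus control, was -1.51 (SE 0.67), and without control replicate 2 it was -2.34 (SE 0.24).

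Igfbp3, which carries most of the IGF in blood as part of a complex with the acid-labile subunit, stood clear of the floor of the scale on control replicates 1 and 3 alone of the 6 arrays. Its brighter probe set read 202.6, 11.9 and 218.0 intensity units in control replicates 1, 2 and 3, and 6.79, 9.57 and 12.8 units in knockdown replicates 1, 2 and 3. The second probe set gave 110.5, 5.92 and 104.8 units in the controls and 2.64, 2.54 and 1.94 units in the knockdown samples. On 4 arrays both probe sets were below 16 units, while control replicates 1 and 3 read above 100 units. The groups overlapped for the brighter probe set, through control replicate 2, but not for the second. There control replicate 2 and the knockdown samples were all below 16 units, so their order carries little weight.

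The log2 difference of Igfbp3 was -2.14 (SE 0.78) with 6 arrays and -3.14 (SE 0.13) without control replicate 2. Its size depended on the offset of 16, and was -3.00 with an offset of 1 and -1.28 with an offset of 64 over the 6 arrays. The second probe set pointed the same way, at -1.93 (SE 0.65) and, without control replicate 2, -2.76 (SE 0.08).

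Igfbp5, which binds to extracellular matrix and is the binding protein most often linked with muscle differentiation, was bright on every array by 1 of its 2 probe sets. That brighter probe set read 3229, 1171 and 2620 intensity units in control replicates 1, 2 and 3, and 907.9, 1161 and 957.1 units in knockdown replicates 1, 2 and 3. All controls lay above all knockdown samples in these deposited values, but control replicate 2 and knockdown replicate 2 were almost level and changed order after quantile normalization, at 10.20 and 10.21 log2 units. The control mean was 11.08 ± 0.76 and the knockdown mean 10.01 ± 0.23 (SD, n = 3 each). The log2 difference was -1.06 (SE 0.36), and -1.50 (SE 0.15) without control replicate 2.

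The dimmer probe set of Igfbp5 read 98.4, 65.3 and 81.1 units in the controls and 27.1, 56.3 and 38.8 units in the knockdown samples. Here the groups did not overlap, and the arrays numbered 2 were the lowest control and the highest knockdown sample. Its log2 difference was -0.78 (SE 0.21) with 6 arrays and -0.93 (SE 0.21) without control replicate 2.

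Igfbp7 stood the other way round. Its brightest probe set read 254.5, 1071 and 224.6 intensity units in control replicates 1, 2 and 3, and 1115, 1040 and 760.2 units in knockdown replicates 1, 2 and 3. Control replicates 1 and 3 were the lowest of the 6 arrays, and control replicate 2 fell among the knockdown samples. The control mean was 8.69 ± 1.19 and the knockdown mean 9.94 ± 0.18 on the log2 scale (SD, n = 3 each), a log2 difference of 1.26 (SE 0.54), or 1.95 (SE 0.12) without control replicate 2.

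A second probe set of Igfbp7 showed the same order at low readings, with 6.60, 31.5 and 5.27 units in the controls and 34.2, 30.3 and 20.2 units in the knockdown samples. Its log2 difference was 0.64 (SE 0.30), and 1.00 (SE 0.14) without control replicate 2. The third stayed between 16.6 and 21.3 units on every array and gave 0.12 (SE 0.07), too near the floor to show a size.

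Igfbp4, an inhibitory binding protein that the protease PAPP-A cuts, did not separate the groups. Its brightest probe set read 184.4, 441.0 and 266.1 intensity units in control replicates 1, 2 and 3, and 195.7, 402.4 and 225.3 units in knockdown replicates 1, 2 and 3. In both groups the array numbered 2 was highest and that numbered 1 lowest, and the groups overlapped throughout. The log2 difference was -0.07 (SE 0.37), and its sign turned to 0.23 (SE 0.33) without control replicate 2.

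Of the 6 probe sets of Igfbp4, 5 gave a clear reading and were highest on the array numbered 2 in each group, while the sixth stayed between 14.9 and 18.1 units. With 6 arrays the differences of the 6 probe sets lay between -0.07 and 0.04, 4 of them on the lower side, and without control replicate 2 only 1 was, the dim one, at -0.08 (SE 0.08). The names of 2 of the 6 carry the suffix x, which Affymetrix gives to probe sets that may also bind other transcripts.

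Igfbp6, a binding protein with a preference for IGF2, was measured by 1 probe set. It read 295.7, 371.5 and 207.0 intensity units in control replicates 1, 2 and 3, and 222.6, 360.5 and 174.1 units in knockdown replicates 1, 2 and 3. The arrays numbered 2 were the highest and those numbered 3 the lowest in each group. The log2 difference was -0.20 (SE 0.28), and -0.03 (SE 0.28) without control replicate 2.

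**Figure D2:**
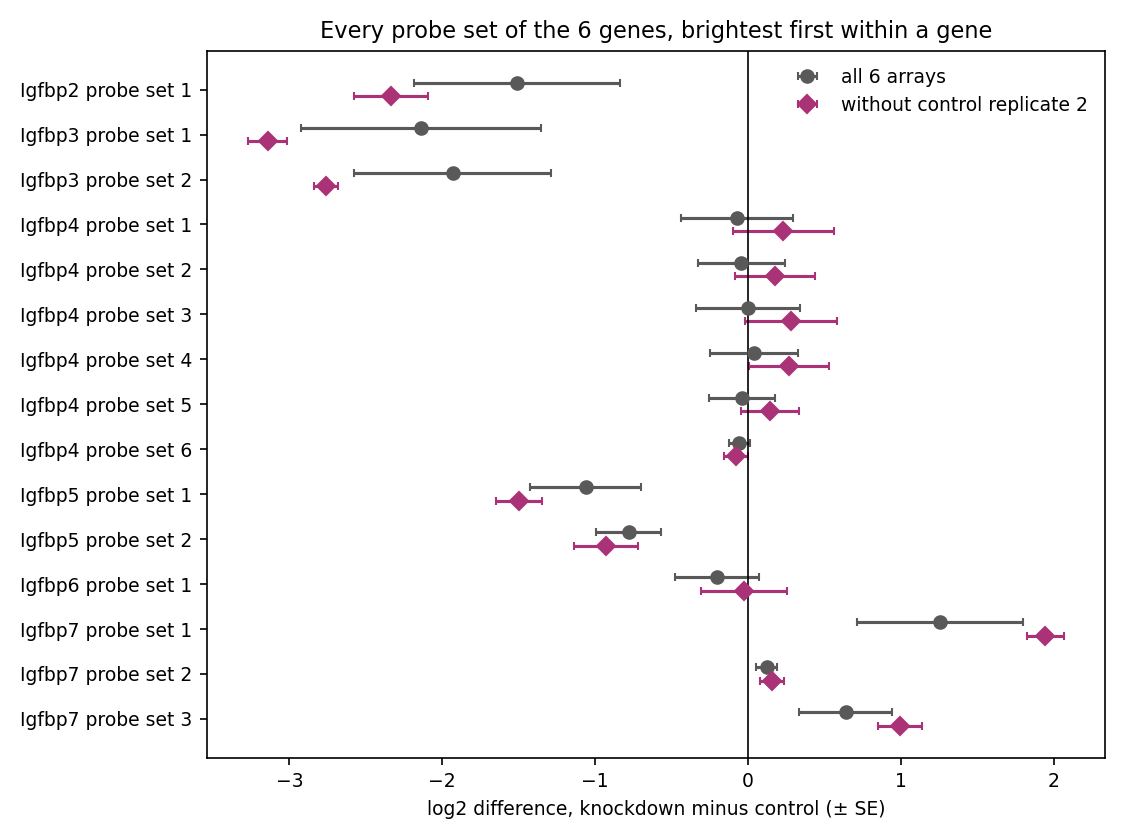
Log2 difference (knockdown minus control) of each of the 15 probe sets ± SE, with all 6 arrays in grey circles and without control replicate 2 in purple diamonds; the vertical line marks no difference. Leaving out that array moved Igfbp2, Igfbp3, Igfbp5 and Igfbp7 away from 0 and left the probe sets of Igfbp4 and Igfbp6 between -0.08 and 0.28.

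The position of control replicate 2 can be put in numbers gene by gene. Its log2 value minus the knockdown mean was -0.14 for Igfbp2, 0.14 for Igfbp3, 0.19 for Igfbp5 and 0.12 for Igfbp7. Its log2 value minus the mean of control replicates 1 and 3 was -2.48 for Igfbp2, -3.01 for Igfbp3, -1.31 for Igfbp5 and 2.07 for Igfbp7. These values are those of the brightest probe sets. By the dimmer probe set of Igfbp5 control replicate 2 lay between the 2 sides, at 0.48 from the knockdown mean and -0.45 from the mean of control replicates 1 and 3. So by the brightest probe set, for 4 of the 4 binding protein genes in which control replicates 1 and 3 stood at least 1 log2 unit from the knockdown mean, control replicate 2 was nearer the knockdown mean. Over all genes with such a gap, these 4 included, the share was 99.2% (236 of 238), and the 4 binding protein genes were in this like the other genes with such a gap.

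**Figure D3:**
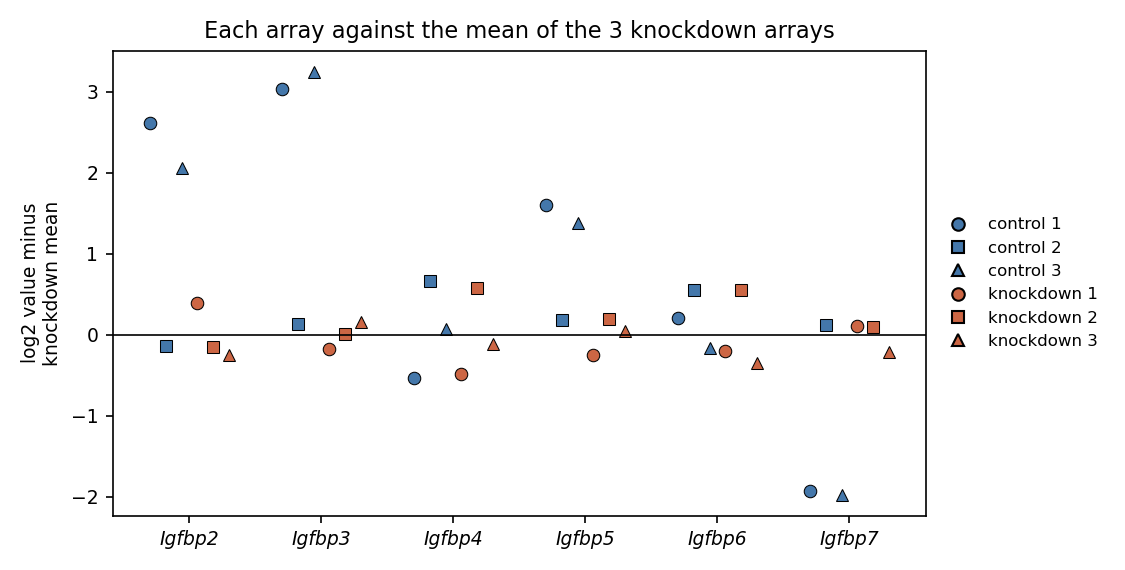
Log2 value of each array minus the mean of the 3 knockdown arrays, for the brightest probe set of each gene; blue marks controls, orange marks knockdown samples, and the shapes are replicate numbers. Control replicates 1 and 3 stand 1.50 to 3.14 on average from the knockdown mean for Igfbp2, Igfbp3, Igfbp5 and Igfbp7, where control replicate 2 stays within 0.19 of it.

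Same-numbered arrays were compared because deviations from the group means went together by number over all genes. For Igfbp2 the knockdown minus control difference was -2.22 for number 1, -0.0069 for number 2 and -2.31 for number 3. For Igfbp3 it was -3.21, -0.12 and -3.09, for Igfbp5 -1.86, 0.01 and -1.34, and for Igfbp7 2.04, -0.03 and 1.76. Number 2 thus showed next to no difference in any of these genes, and numbers 1 and 3 showed it in the same direction. For Igfbp4 the 3 differences were 0.05, -0.08 and -0.18, and for Igfbp6 -0.41, -0.0019 and -0.19. Same-numbered arrays were also paired through a block in limma. The limma SE fell from 0.37 to 0.08 for Igfbp4 and from 0.28 to 0.10 for Igfbp6. For these genes most of the spread went with the number. For Igfbp5 the limma SE went from 0.36 to 0.34, but limma draws each SE towards the spread of all genes. The 3 differences of Igfbp5 themselves had an SD of 0.96, against 0.76 in the controls and 0.23 in the knockdown samples. That small fall is therefore no sign that pairing removed spread for Igfbp5.

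Arrays numbered 2 being highest in both groups, as seen for Igfbp4 and Igfbp6, was the case for 21.5% of all genes. Those arrays also had the lowest ratio of 3′ to 5′ signal for the control transcript of Actb, at 1.39 in control replicate 2 and 1.45 in knockdown replicate 2, where the other 4 arrays gave 1.60 to 1.77. For Gapdh the ratio was 0.940 and 0.933 on the arrays numbered 2 and 0.974 to 1.10 on the others. This ratio reads how far the labelled RNA reaches towards the 5′ end, and its part in the values of Igfbp4 and Igfbp6 was not tested.

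Marker lists of other cell types were set beside the binding proteins. The summed intensity of 5 neuronal markers was 1251 and 729.9 units in control replicates 1 and 3 and 466.0 to 546.8 units on the other 4 arrays, a split like that of Igfbp2. Nefl and Tubb3 carried it. Nefl read 594.1 and 330.0 units in control replicates 1 and 3 and 0.635 to 2.05 units elsewhere. Tubb3 read 463.1 and 267.9 units there and 19.5 to 34.4 units elsewhere. Nefm split the same way but was dim, at 27.0 and 11.8 units there. Snap25 was below 16 units on every array. Stmn2 went the other way round, at 163.9 and 119.2 units in control replicates 1 and 3 and 441.5 to 513.3 units elsewhere. The sum of 6 smooth muscle markers was 2734 and 2601 units in control replicates 1 and 3 and 3304 to 4520 units on the others, a split like that of Igfbp7. Tagln, Actg2 and Cnn1 carried it, Tagln for example at 398.9 and 293.9 units in control replicates 1 and 3 and 1047 to 1618 units elsewhere. Smtn did not show it, and Des went the other way, at 1834 and 1859 units in control replicates 1 and 3 and 1297 to 1524 units elsewhere. Myh11, the myosin that defines smooth muscle, was below 16 units throughout. The sum of 6 measured fibroblast markers ranged from 3666 to 3927 units in the controls and from 3296 to 3905 in the knockdown samples, with Lum and Dpt below 16 units on every array. Most of that sum was Col3a1, and other members split in opposite directions. Dcn read 176.4 and 178.3 units in control replicates 1 and 3 and 7.23 to 19.6 units elsewhere, whereas Col1a1 read 99.9 and 90.8 units there and 487.5 to 1054 units elsewhere. Pdgfra was also lowest on control replicates 1 and 3, at 12.8 and 14.8 units against 22.5 to 69.7 units. The part of these cell programmes in the binding protein values was not tested. Of 5 endothelial markers, Pecam1, Cdh5, Kdr and Tek were below 16 units on every array, and so were the 4 measured adipocyte markers. Emcn, the remaining endothelial marker, was below 16 units on the arrays numbered 2 and read 31.8 to 52.6 units on the others. Of 5 macrophage markers, Ptprc, Cd68 and Itgam were below 16 units on every array. Csf1r and Adgre1 were above that level on every array, at 34.5 to 133.5 and 16.8 to 36.6 units.

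Igfbp2 and Igfbp5 are direct neighbours on chromosome 1 among protein-coding genes. On the outer side of Igfbp2 lies Rpl37a, a ribosomal protein gene, which read 2900 to 3331 units in the controls and 3108 to 3395 units in the knockdown samples (log2 difference 0.05, SE 0.10). On the outer side of Igfbp5 lies Tnp1, which was below 16 units on every array. The split of control replicates 1 and 3 from the rest was therefore seen in the readings of Igfbp2 and Igfbp5 and not in that of Rpl37a.

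Igfbp3 has Igfbp1 next to it on chromosome 11. Igfbp1, a binding protein made chiefly by liver, read at most 1.19 units on any array, including control replicates 1 and 3, where Igfbp3 was high. On its other side, Tns3 read 298.6, 714.9 and 233.6 units in the controls and 509.4, 699.5 and 376.0 units in the knockdown samples, with a log2 difference of 0.46 (SE 0.40), and 0.92 (SE 0.22, adjusted p = 0.13 with limma) without control replicate 2. Control replicates 1 and 3 were its lowest arrays, the opposite of Igfbp3.

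The genes whose log2 values followed each binding protein most closely over the 6 arrays were sought among 802 genes at or above the median brightness that ranged over at least 1 log2 unit. The 6 binding protein genes themselves and genes with clone or predicted-locus names were left out of these candidates, so no binding protein could be listed. The 6 arrays share the split described above, so high correlations are common and serve only as a description. For Igfbp2 they were Cd44 (r = 0.996), Pfkp (r = 0.993) and Khdrbs3 (r = 0.992), and for Igfbp5 Gas2 (r = 0.999), Cited2 (r = 0.998) and Pde5a (r = 0.996). For Igfbp3 they were the myogenic factor gene Myf5 (r = 0.997), the proteoglycan gene Dcn (r = 0.997) and Glcci1 (r = 0.997). For Igfbp7 they were the muscle caveolin gene Cav3 (r = 0.996), the type I collagen gene Col1a1 (r = 0.996) and Thbs1 (r = 0.995). For Igfbp4 they were Cyb5r1 (r = 0.992), F11r (r = 0.976) and Slc7a5 (r = 0.971), and for Igfbp6 Cadm4 (r = 0.987), Cd99 (r = 0.963) and Dact1 (r = 0.958).

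The other genes of the pathway were taken from 7 lists by role, with 49 of 52 genes measured. With 6 arrays, 0 of the 49 passed an adjusted p of 0.05 (limma), 6 had an unadjusted p under 0.05, and 23 were on the higher side. The median log2 difference was -0.0045, and -0.0033 over all genes. Without control replicate 2, 2 rose and 1 fell, where 0.896% of all genes rose and 0.704% fell. These were Foxo1 and Pik3r1, which rose, and Grb14, which fell.

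Neither Igf1 nor Igf2, the ligands, passed the threshold in these fits. Igf2, the IGF that myoblasts make in quantity, read 463.6, 346.6 and 930.2 intensity units in control replicates 1, 2 and 3 and 356.2, 333.4 and 365.1 units in knockdown replicates 1, 2 and 3. Control replicate 3 alone stood far above the rest, and the groups overlapped (log2 difference -0.55, SE 0.35, and -0.86, SE 0.30, without control replicate 2). Igf1 was dim, at 9.91 to 15.2 units in the controls and 18.8 to 28.7 units in the knockdown samples. Its groups did not overlap, with a log2 difference of 0.42 (SE 0.13, adjusted p = 1.00 with limma) and 0.49 (SE 0.13, adjusted p = 0.18) without control replicate 2.

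Among the receptors, Igf1r, the signalling receptor for both IGFs, stood at 0.30 (SE 0.11) and Igf2r, which clears IGF2, at -0.27 (SE 0.15) in log2 difference, neither past the threshold. None of the 4 receptor genes passed in either fit. Igfals, the acid-labile subunit that joins Igfbp3 in blood, was below 16 units on every array.

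Of 9 genes for proteases that cut binding proteins and for their inhibitors, 0 passed in either of these fits. Adam12, a protease that cuts Igfbp3 and Igfbp5, read 85.4, 148.6 and 85.0 units in control replicates 1, 2 and 3 and 252.0, 148.2 and 197.1 units in knockdown replicates 1, 2 and 3. Control replicates 1 and 3 were again the lowest, and the arrays numbered 2 were level with each other. Its log2 difference was 0.84 (SE 0.23, adjusted p = 1.00 with limma), and 1.05 (SE 0.19, adjusted p = 0.060) without control replicate 2. Pappa, which encodes the protease of Igfbp4, read 79.5, 8.37 and 31.7 units in the controls and 19.9, 12.7 and 4.07 units in the knockdown samples, with a difference of -0.81 (SE 0.48) and, without control replicate 2, -1.30 (SE 0.34, adjusted p = 0.16 with limma).

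Among 9 receptor substrates and adaptors, Grb14, an inhibitory adaptor of the insulin receptor, fell by 0.81 on the log2 scale without control replicate 2 (SE 0.11, adjusted p = 0.030 with limma). It was dim, at 28.1, 7.84 and 20.9 units in the controls and 6.75 to 7.46 units in the knockdown samples, so the offset sets the size. Without both arrays numbered 2 it passed only with the replicate block. Gab1, a docking protein for the PI3 kinase, stood at -0.71 (SE 0.13, adjusted p = 0.069) without control replicate 2.

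Among 13 measured genes of the PI3 kinase and AKT branch, Pik3r1, a regulatory subunit of the kinase, rose by 0.93 (SE 0.09, adjusted p = 0.015 with limma) without control replicate 2. It read 52.0, 121.0 and 48.8 units in control replicates 1, 2 and 3 and 107.3 to 116.6 units in the knockdown samples. Foxo1, a transcription factor that AKT keeps out of the nucleus, rose by 1.04 (SE 0.10, adjusted p = 0.013) in the same fit, from 69.1 and 69.8 units in control replicates 1 and 3 to 137.1 to 174.2 units in the knockdown samples, and read 201.4 units in control replicate 2. In deposited values control replicate 2 thus stood above all knockdown arrays for both genes. Pik3r2, another regulatory subunit, was on the other side, at -0.49 (SE 0.11, adjusted p = 0.10).

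Of 10 relatives that carry an IGFBP-like domain, 0 passed in either fit and 5, including Igfbp1 and Igfbpl1, were below 16 units on every array. Ccn4 and Ccn1, matrix-associated proteins of the CCN family, stood at 0.54 (SE 0.22) and 0.42 (SE 0.18) with 6 arrays. Ccn2, named here because its value was seen to be large, read 318.0, 764.7 and 154.2 units in the controls and 1775, 748.9 and 471.5 units in the knockdown samples (log2 difference 1.32, SE 0.61, adjusted p = 1.00 with limma). Its groups overlapped, and the arrays numbered 2 were once more level.

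**Figure D4:**
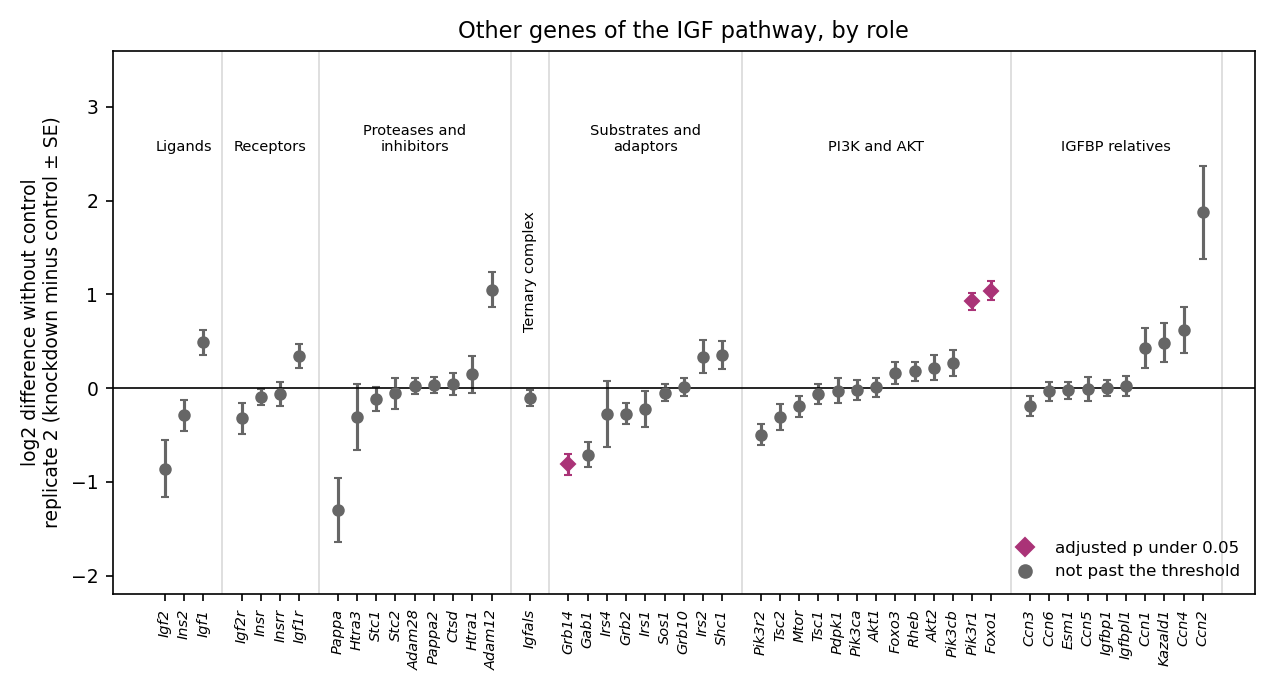
Log2 difference (knockdown minus control) ± SE without control replicate 2 for the 49 measured genes of the 7 pathway lists, grouped by role and ordered by value within each; purple diamonds passed an adjusted p of 0.05 over all genes (limma) and grey circles did not. Foxo1 and Pik3r1 lie above 0 and Grb14 below it, and the wide bars of Ccn2 and Pappa belong to genes that did not pass.

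Which arrays were compared set the calls. Without both arrays numbered 2, 120 of all genes (0.66%) passed, or 721 (3.96%) once same-numbered arrays were paired through a replicate block. Of the pathway genes, Adam12, Foxo1 and Pik3r1 passed without the block, all higher, and 10 passed with it, of which Adam12, Ccn1, Ccn2, Ccn4, Foxo1, Igf1 and Pik3r1 were higher and Gab1, Grb14 and Pappa lower. When either control replicate 1 or control replicate 3 was left out in addition to control replicate 2, 1 control array remained, whose spread had to be assumed alike, and 6 (0.033%) and 11 (0.0605%) of all genes passed, with 0 pathway genes among them. Leaving out 1 knockdown array in addition to control replicate 2 gave 0.368% to 1.05% of all genes. Pik3r1 passed in each of those 3 fits, Foxo1 without knockdown replicate 2 or 3, and Adam12 without knockdown replicate 2.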

How the data were processed

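Gene expression was measured in 3 control and 3 PRDM2 knockdown samples, grouped by title. The authors deposited linear intensity values, 1 for each probe set and array. GCOS and PLIER are the tools named in the submitters' processing notes. How arrays were scaled to each other is not given there. Of 45101 probe sets, 64 controls and 4 that held a gene's Entrez number (14699) in 1 column were left out. Values were taken as log2(intensity + 16) and quantile-normalized, since the upper quartiles of the arrays ranged over 0.15, above a limit of 0.1. A gene was represented by its brightest probe set naming it alone, with no filter on dim genes. Where intensity per array is given, it is the deposited value. Fits used limma 3.58.1 in R 4.3.3 (lmFit, eBayes, two-sided, Benjamini-Hochberg over 18192 genes, threshold 0.05) and were tested on simulated data. The simulated arrays were independent, with the same spread for every gene and group. They held nothing like the position of control replicate 2 or the pairing by number, so they do not show how the fit behaves under those. With 3 arrays a group, precision is limited by their number.

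Members, pathway and marker lists and alternatives were chosen with earlier results of these data known. Pathway genes were named if past the threshold with all arrays or without control replicate 2, if among the 2 of smallest p in their list, or if Igf1, Igf2, Igf1r, Igf2r or Igfbp1. Ins1 and 2 further listed genes were not analysed here. Older symbols of the CCN family were matched through synonyms in the RefSeq table. The most alike genes were the 3 of highest Pearson correlation for each member. Promoter windows of all 6 genes came from RefSeq (GRCm38.p6), and the 50 bases after the start were left out.

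To see whether replicate numbers pair the samples, each array's deviation from its group mean was correlated with that of its namesake, which gave 0.336, 0.593 and 0.660 for numbers 1, 2 and 3 over 18192 genes, all above the 0.1 set for a paired reading, which rests on the data and not on a statement in the labels. Alternatives were other scalings, offsets, gene summaries and limma settings, the replicate block, and leaving out arrays.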

Additional observations from a re-analysis of the deposited data

How the results depend on the processing

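Over all genes 0 passed with arrays scaled as deposited or centred on the median, with an offset of 1 or 64, without the dimmer genes, on averaging or separating probe sets, with trend and robust settings, array weights and the replicate block (0 calls, where unadjusted p was under 0.05 for 1639 genes by limma in the paired fit and for 600 without the block). Leaving out 1 array at a time gave between 0 and 291 calls, the latter without control replicate 2 and 0 for each of the other 5 arrays. For pathway genes the range was 0 to 3. Without both arrays numbered 2 the counts were 120 genes and 3 pathway genes, and with the replicate block as well 721 and 10. The cause of these changes was not tested. Of the 84 alternative values of the 6 binding protein genes, 82 kept their sign. The exceptions were 2 values of Igfbp4, which ranged from -0.37 without control replicate 1 to 0.23 without control replicate 2. Some of the 84 values could not change a sign, so the count overstates the agreement. Adding the replicate block repeats the difference found without it, and so does the probe set mean of Igfbp2 and Igfbp6, which have 1 probe set each. When 1 more array was left out with control replicate 2, a choice made after seeing the data, Igfbp4 turned to 0.53, 0.47 and 0.28 (without control replicate 3, knockdown replicate 1 or knockdown replicate 3) and Igfbp6 to 0.16, 0.08 and 0.15 (without control replicate 1, knockdown replicate 1 or knockdown replicate 3). Leaving out 1 array at a time, Igfbp2 ranged from -2.34 to -0.96, Igfbp3 from -3.14 to -1.59, Igfbp5 from -1.50 to -0.79, Igfbp6 from -0.48 to -0.03 and Igfbp7 from 0.90 to 1.95. The mean over the probe sets of Igfbp7 gave 0.67. Readings below 16 units, such as those of Igfbp3 on 4 arrays, limit sizes and not the order of arrays far above that level.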
